A study of Homo sapiens with 6 samples.

Results

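The BCL2 family decides, at the mitochondrial outer membrane, whether a cell starts the intrinsic pathway of apoptosis. Its transcripts were examined in SU-CCS-1, an established line of human clear cell sarcoma in which EWSR1 is fused to ATF1 (the fusion is called EA1). Members were the 10 genes BCL2, BCL2L1, MCL1, BCL2A1, BAX, BAK1, BCL2L11, BBC3, PMAIP1 and BID, taken by gene name from the count table of 18118 genes, and all 10 were found. The 6 libraries came from this 1 line, and all were transfected with 5 pmol of siRNA for 48 h. The 2 control libraries carry the label siNeg1 (KD scramble control), 2 libraries the label siEA1-1 (KD EA1-1) and 2 the label siEA1-2 (KD EA1-2); the last 4 are the knockdown libraries. The study's methods name 1 siRNA against EA1, whereas the labels list 2. Comparing each knockdown with the control asks which transcripts changed with each EA1 siRNA.

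Antiapoptotic proteins such as BCL2, BCL-XL (encoded by BCL2L1), MCL1 and BFL1 (encoded by BCL2A1) hold the effectors BAX and BAK in check. When released, the effectors form pores that let cytochrome c out of the mitochondria, and caspases follow. BH3-only proteins, among them BIM (BCL2L11), PUMA (BBC3), NOXA (PMAIP1) and BID, carry stress signals to the family by binding the antiapoptotic proteins or the effectors. MITF, the melanocyte lineage factor that clear cell sarcoma also expresses, is known to drive BCL2 in melanocytic cells.

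Polyadenylated RNA was counted per gene, and the counts per library summed to between 5942808 and 7599305. The 10 members together took between 1847 and 3422 counts per library. Levels are given as normalized CPM (counts scaled to a common library size with TMM factors), and 3 counts correspond to between 0.386 and 0.534 CPM. Changes are log2FC values from edgeR's quasi-likelihood test, adjusted over the 14571 genes tested. The log2FC is positive where control exceeded knockdown, the sign the study uses. A gene was called at an adjusted p under 0.05. The labels do not say that replicates were separate cultures, so the tests measure the spread between libraries, which may be technical. In bulk RNA, fewer cells that express a gene cannot be told apart from less of its RNA per cell. ATF1, whose 3′ part is in the fusion, fell from 84.8 ± 3.72 CPM (SD, n = 2) in control to 20.7 ± 0.660 with siEA1-1 and 22 ± 0.427 with siEA1-2 (SD, n = 2 each), with adjusted p values of 6.70e-07 and 1.05e-06. Its counts do not separate the fusion from unrearranged ATF1. EWSR1, the other partner, was not called (adjusted p = 0.450 and 0.789), and its counts do not separate the fusion from unrearranged EWSR1 either. The level of the fusion itself was therefore not measured. Melanocytic lineage markers summed to between 2750 and 3010 CPM in control and between 7393 and 11989 CPM in the knockdown libraries. All 8 were in the table, and MLANA reached no more than 4.27 CPM. PMEL was the largest part of each sum, and the highest sum was that of siEA1-2 replicate 1, with PMEL at 7768 CPM against 4241 in replicate 2. SOX10 was not called with either EA1 siRNA (adjusted p = 0.522 and 0.125). Of 20 markers of other cell types, 4 were in the table and none was above 4.63 CPM.

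Promoter windows of the members were read from RefSeq (GRCh38.p14), each with 250 bases before and 50 after a transcript start. Windows were found for 9 of the 10 members, 14 windows in all, and that of MCL1 was not used here. The windows of BCL2, PMAIP1 and BBC3 are shown, of which the first pair fell and the last rose with each EA1 siRNA. BID also fell with each, and its windows are not shown. Capitals mark 3 kinds of matches, searched on both strands: TGACG (the core of the cAMP response element TGACGTCA, to which ATF1 family proteins bind, and therefore also found inside it), the AP1 element TGAGTCA, and the E-box CACGTG.
BCL2 (chr18:63319720-63320019, minus strand): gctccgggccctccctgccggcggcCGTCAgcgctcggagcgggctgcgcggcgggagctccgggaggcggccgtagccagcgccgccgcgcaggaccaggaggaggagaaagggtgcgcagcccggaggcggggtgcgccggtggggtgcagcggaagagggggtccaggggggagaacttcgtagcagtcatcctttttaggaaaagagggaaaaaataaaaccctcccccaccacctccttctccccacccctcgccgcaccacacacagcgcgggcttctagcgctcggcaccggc
PMAIP1 (chr18:59899746-59900045, plus strand): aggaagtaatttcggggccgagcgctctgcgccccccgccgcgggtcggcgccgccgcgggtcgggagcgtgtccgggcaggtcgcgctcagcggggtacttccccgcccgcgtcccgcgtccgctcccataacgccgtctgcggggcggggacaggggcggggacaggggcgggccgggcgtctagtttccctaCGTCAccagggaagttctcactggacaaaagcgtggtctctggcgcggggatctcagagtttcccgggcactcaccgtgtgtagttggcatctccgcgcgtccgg
BBC3 (chr19:47232618-47232917, minus strand): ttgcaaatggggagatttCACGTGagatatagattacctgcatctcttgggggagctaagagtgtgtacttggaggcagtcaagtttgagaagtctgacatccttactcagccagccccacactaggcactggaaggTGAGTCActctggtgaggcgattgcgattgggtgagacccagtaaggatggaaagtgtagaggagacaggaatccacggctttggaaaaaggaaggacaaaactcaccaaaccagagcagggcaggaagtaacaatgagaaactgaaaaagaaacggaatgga
The full element TGACGTCA was in 0 of the 14 member windows and in 1.85% of all 35116 windows in the table. Its core TGACG was in 4 of the 14 member windows, those of BAX, BCL2 and PMAIP1 and a window of BCL2L1, and in 24.6% of all windows. No window of BID held it. In PMAIP1 the match began 55 bases before the start, and in BCL2 225 bases before it. TGAGTCA was in 1 of the 14 member windows, that of BBC3, 113 bases before the start, and in 4.95% of all windows. CACGTG was in 4 of the 14 member windows (of BAX, BBC3 and BID, where overlapping windows shared the match), against 7.26% of all windows. In BBC3 it began 232 bases before the start. The BAX window held 4 CACGTG matches, at 138, 93, 45 and 14 bases before the start, and the first shared its last bases with the TGACG match. GC content was 70.7% for BCL2, 71.3% for PMAIP1 and 48% for BBC3, with a median of 58.7% over all windows. These matches are letters in a window; binding was not examined here.

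With siEA1-1, edgeR called 4 members higher in control (BCL2, BAX, PMAIP1 and BID) and 1 lower (BBC3), where 20.3% of all genes tested were called higher and 19.9% lower. With siEA1-2, again 4 were called higher (BCL2, BCL2L11, PMAIP1 and BID) and 1 lower (BBC3), against 18.2% and 18.5% of all genes. Both contrasts share the control libraries and are therefore not independent. Against the mean of both EA1 siRNAs, BCL2, BCL2L11, PMAIP1 and BID were called higher and BBC3 lower, beside 22.1% and 21.5% of all genes. The median log2FC of the members was 0.36 with siEA1-1 and 0.33 with siEA1-2, and that of all genes -0.02 and -0.00. Both control libraries lay above all 4 knockdown libraries for 4 members, BCL2, BCL2L11, PMAIP1 and BID, as for 27.3% of all genes. They lay below all 4 for 1 member, BBC3, as for 28.1% of all genes. For the other 5 members the control and knockdown libraries overlapped.

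**Figure D1:**
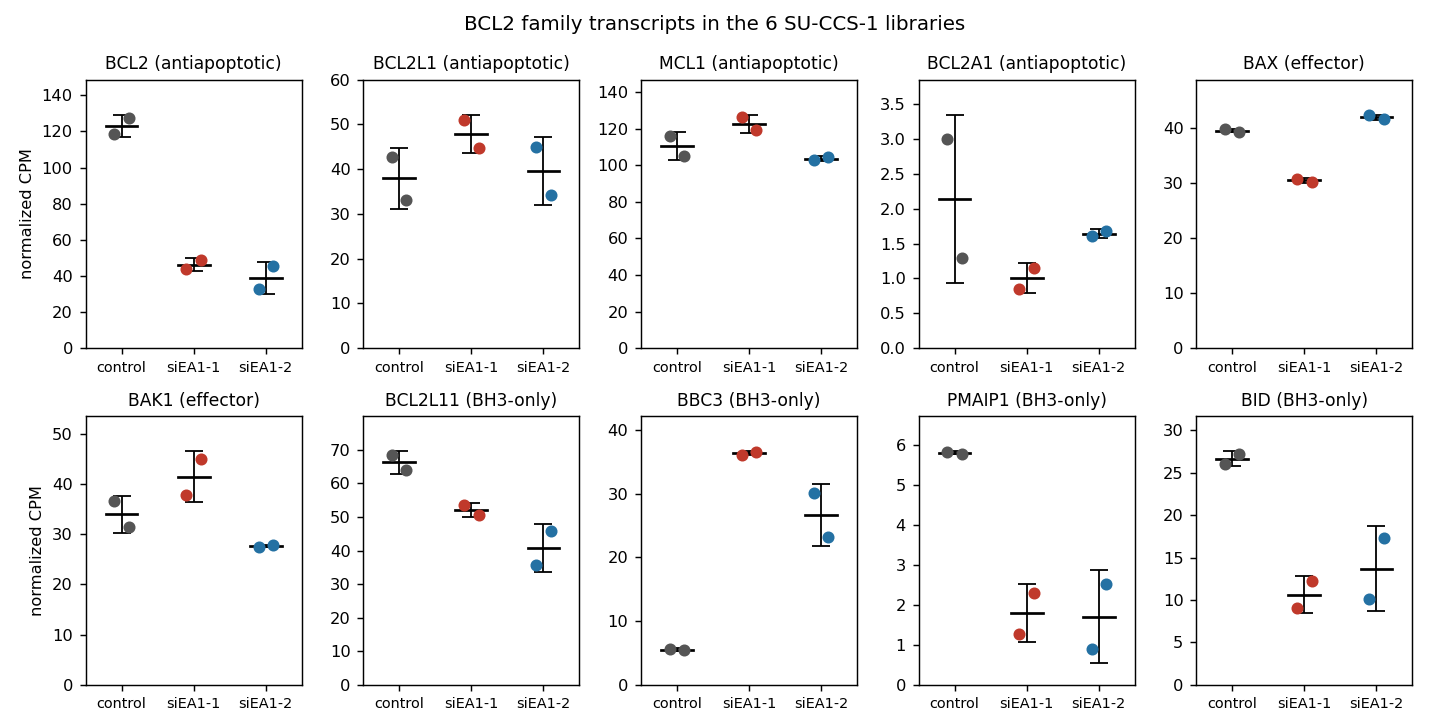
Normalized CPM (vertical axes, each from 0) of the 10 members in the 6 libraries; points are libraries, lines are means and bars are ±1 SD of 2 libraries per condition. BCL2 stood at 119 and 127 in control and at no more than 48.9 with either EA1 siRNA, and BBC3 at 5.69 and 5.4 in control and at no less than 23.2 in knockdown.

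Levels of different genes can be compared only per length, and for this CPM was divided by the annotated exon length in kb. In control, MCL1 was at 17.8 ± 1.22 CPM per kb (SD, n = 2), followed by the effectors BAK1 at 15.3 ± 1.65 and BAX at 15.2 ± 0.123, whose libraries overlapped. BCL2L11 at 9.82 ± 0.488, BCL2 at 9.76 ± 0.489 and BCL2L1 at 9.04 ± 1.65 CPM per kb came next and also overlapped. BID was at 6.03 ± 0.194, and at the low end stood PMAIP1 at 2.66 ± 0.0167, BCL2A1 at 2.15 ± 1.21 and BBC3 at 1.74 ± 0.0639 CPM per kb, of which BCL2A1 overlapped both of its neighbours. With this length MCL1 had the highest mean in all 3 conditions, although with siEA1-1 its libraries overlapped those of BAK1.

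In knockdown, BCL2 came down and BBC3 went up in this order. BBC3, last of the 10 members in control, reached 11.4 ± 0.0969 CPM per kb with siEA1-1 and 8.36 ± 1.54 with siEA1-2, rank 4 and rank 5. BCL2, at rank 5 in control, was at 3.67 ± 0.294 and 3.09 ± 0.698 CPM per kb, rank 7 and rank 8. PMAIP1 was last with each EA1 siRNA. The order depends on the length used: with the canonical transcript in place of all annotated exons, BAX moved from rank 3 to rank 1 in control, BCL2 from rank 5 to rank 3, and BBC3 from rank 10 to rank 9. On that length too, BBC3 was at rank 3 with siEA1-1 and rank 4 with siEA1-2, and BCL2 at rank 7 and rank 8. BAX was then at rank 1 and MCL1 at rank 2 in all 3 conditions.

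Summed by role, the 4 antiapoptotic members held 41.3 and 36.2 CPM per kb in control, 36.7 and 34.9 with siEA1-1, and 31.5 and 30.2 with siEA1-2. The 2 effectors held between 28.6 and 32 CPM per kb in all 6 libraries. For the 4 BH3-only members the sums were 20.5 and 19.99 in control, 21.9 and 22.8 with siEA1-1, and 17.5 and 19.1 CPM per kb with siEA1-2. Within this last sum, BBC3 rose while PMAIP1 and BID fell with each EA1 siRNA. BCL2L11 went from 9.82 CPM per kb in control to 7.73 with siEA1-1, where it was not called, and fell to 6.06 with siEA1-2. The BH3-only sum was above control with one EA1 siRNA and below it with the other. These sums were not tested. They use the annotated exon length and, like the order, depend on it. BAX has 2587 bases of annotated exon but 795 in its canonical transcript, on which the sums were not taken.

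**Figure D2:**
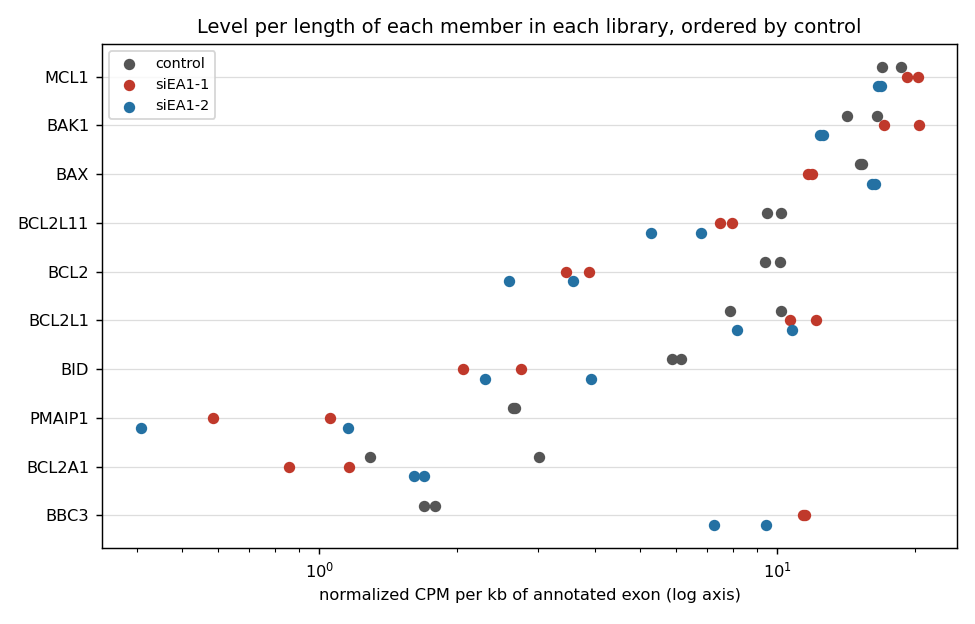
Normalized CPM per kb of annotated exon (horizontal log axis) of each member, ordered by its mean in control; each point is 1 library. BBC3 lies at the low end in control, at 1.74 on average, and near BCL2L1 in knockdown, whereas BCL2 lies near BCL2L11 in control and below it in every knockdown library.

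Of the antiapoptotic members, BCL2 fell with each EA1 siRNA. BCL2 (ENSG00000171791, chr18:63123346-63320128 minus strand; all gene positions are on hg38), the founding member of the family, had 119 and 127 CPM in control, 43.7 and 48.9 with siEA1-1, and 32.8 and 45.2 with siEA1-2. Every knockdown library was below both control libraries by a margin wider than the spread within any condition. The log2FC was 1.41 (standard error 0.14) with siEA1-1, or 2.66-fold, with an adjusted p of 1.52e-05. With siEA1-2 it was 1.65 (standard error 0.14), or 3.14-fold, with an adjusted p of 7.33e-06. MITF, its known regulator in melanocytic cells, moved the other way, from 654 ± 24.7 CPM in control to 1105 ± 30.4 and 1146 ± 39.9 in knockdown (SD, n = 2 each), with log2FC values of -0.76 and -0.81 and adjusted p values of 0.000149 and 0.000113. These are RNA levels, and a part of MITF in the level of BCL2 was not tested.

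MCL1, BCL2L1 and BCL2A1 were not called with either EA1 siRNA. MCL1 (ENSG00000143384, chr1:150560895-150579738, minus strand), a short-lived antiapoptotic protein, had 116 and 105 CPM in control, 126 and 119 with siEA1-1, and 103 and 105 with siEA1-2. The 6 libraries lay within a narrow band, with siEA1-1 on the high side and siEA1-2 on the low side of control. The 95% interval of its log2FC ran from -0.37 to 0.07 with siEA1-1 (adjusted p = 0.258) and from -0.13 to 0.31 with siEA1-2 (adjusted p = 0.520), which leaves out a change of the size seen for BCL2. A same-strand lncRNA, ADAMTSL4-AS1, shares 328 bases of its exons with MCL1 and had between 3 and 12 counts per library.

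BCL2L1 (ENSG00000171552, chr20:31664452-31723989, minus strand), which gives the antiapoptotic BCL-XL and by splicing the proapoptotic BCL-XS, stood at 42.8 and 33.0 CPM in control. It had 50.9 and 44.8 CPM with siEA1-1 and 45.0 and 34.3 with siEA1-2. Both libraries of siEA1-1 were above both control libraries, and those of siEA1-2 overlapped them. The interval of the log2FC was -0.71 to 0.03 with siEA1-1 (adjusted p = 0.135, and 0.0404 with the replicate number as a block) and -0.44 to 0.32 with siEA1-2 (adjusted p = 0.816). On the opposite strand the lncRNA ABALON, not analysed here, overlaps 41.34% of the annotated exon bases of BCL2L1, and with the use of strand in the counting not stated, its reads could not be told apart.

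BCL2A1 (ENSG00000140379, chr15:79960892-79971196, minus strand), known as a MITF target in melanocytic cells, was scarce. It had 20 and 10 counts in control, 6 and 7 with siEA1-1, and 9 and 12 with siEA1-2, or between 0.853 and 2.99 CPM. One control library was well above the other 5. At this depth the log2FC intervals were wide, from -0.27 to 2.41 with siEA1-1 (adjusted p = 0.189) and from -0.90 to 1.61 with siEA1-2 (adjusted p = 0.670), and held both no change and a change of over 2-fold.

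**Figure D3:**
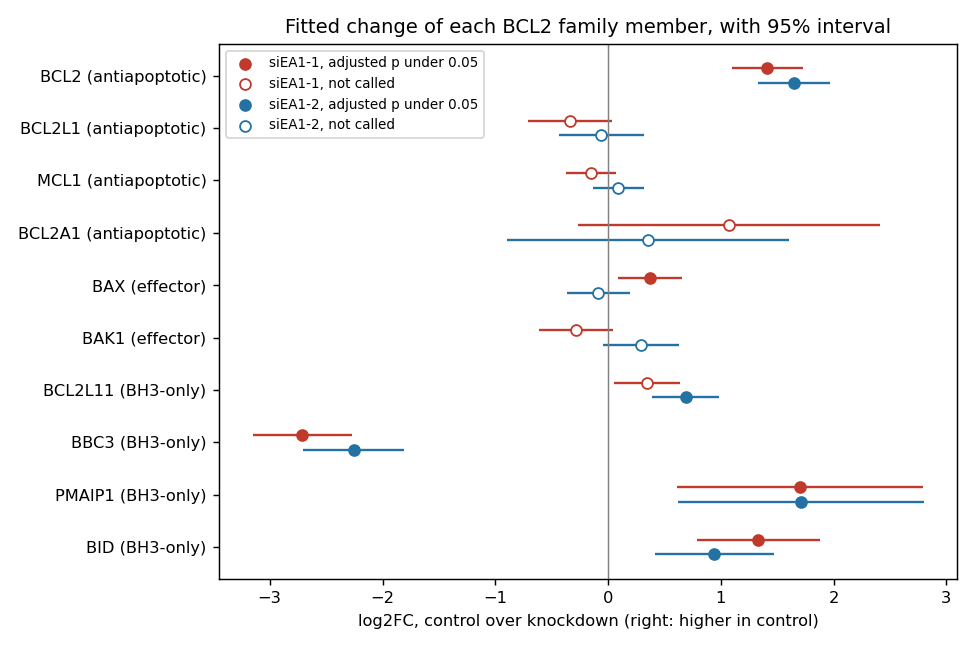
Fitted log2FC (horizontal axis, right of 0 for higher in control) of each member with each EA1 siRNA, with the 95% interval as a line; filled points were called at an adjusted p under 0.05. BCL2, PMAIP1 and BID lie to the right and BBC3 to the left with both EA1 siRNAs, and BAX and BAK1 lie on different sides of 0 for each.

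Of the effectors, BAX was called with siEA1-1 and not with siEA1-2, and BAK1 with neither. BAX (ENSG00000087088, chr19:48954815-48961798, plus strand), which moves from the cytosol to mitochondria when activated, had 39.7 and 39.2 CPM in control, 30.7 and 30.1 with siEA1-1, and 42.2 and 41.6 with siEA1-2. Replicates were close together in each condition, and siEA1-1 lay below and siEA1-2 above control. The log2FC was 0.37 (standard error 0.13) with siEA1-1, or 1.30-fold, with an adjusted p of 0.0390. This call was lost when any 1 of the 4 libraries compared was left out (adjusted p from 0.0966 to 0.141) and with DESeq2 (adjusted p = 0.136). With siEA1-2 the log2FC was -0.09, with an interval from -0.37 to 0.19 and an adjusted p of 0.642.

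BAK1 (ENSG00000030110, chr6:33572547-33580293, minus strand), the effector that resides in the mitochondrial membrane, had 36.5 and 31.4 CPM in control. With siEA1-1 it had 37.8 and 45.0, and with siEA1-2 27.4 and 27.8 CPM. The siEA1-1 libraries were above and the siEA1-2 libraries below both control libraries. Neither contrast passed the test, with log2FC intervals of -0.61 to 0.04 (adjusted p = 0.151) and -0.04 to 0.63 (adjusted p = 0.159).

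Of the 10 members, the BH3-only genes BBC3 and PMAIP1 had the largest averaged log2FC in each direction. BBC3 (ENSG00000105327, chr19:47220822-47232766, minus strand), which encodes PUMA, a BH3-only protein that binds all antiapoptotic members and a known target of FOXO3, had 38 and 42 counts in control. It had 254 and 222 counts with siEA1-1 and 169 and 165 with siEA1-2. In normalized CPM this was 5.69 and 5.4, 36.1 and 36.6, and 30.1 and 23.2. No knockdown library came near control. BBC3 was 6.54-fold higher with siEA1-1 (log2FC -2.71, standard error 0.20, adjusted p = 1.95e-06) and 4.77-fold higher with siEA1-2 (log2FC -2.26, standard error 0.20, adjusted p = 9.47e-06).

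PMAIP1 (ENSG00000141682, chr18:59899996-59904305, plus strand), which encodes NOXA, a BH3-only protein that mainly neutralizes MCL1, went the other way. Its counts were 39 and 45 in control, 9 and 14 with siEA1-1, and 5 and 18 with siEA1-2. Normalized CPM were 5.84 and 5.79 in control, 1.28 and 2.31, and 0.890 and 2.53. Control libraries were close together and above all knockdown libraries, whose own spread was wide. The log2FC was 1.70 (standard error 0.50) with siEA1-1, or 3.26-fold, and 1.71 (standard error 0.50) with siEA1-2, or 3.27-fold, with adjusted p values of 0.0174 and 0.0190. These calls depended on single libraries. Without control replicate 1 or 2 the adjusted p was 0.0661 and 0.0649 with siEA1-1 and 0.0715 and 0.0692 with siEA1-2. It was 0.148 without siEA1-1 replicate 1 and, for the other contrast, 0.101 without siEA1-2 replicate 1. Without siEA1-2 replicate 2, that contrast gave a log2FC of 2.71. Against the mean of both EA1 siRNAs, the log2FC was 1.71 (standard error 0.41, adjusted p = 0.00522) and stayed called under each of the 10 alternatives that gave a value, with adjusted p values of at most 0.0351.

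BID (ENSG00000015475, chr22:17734138-17774770, minus strand), which links death receptors to mitochondria once caspase-8 cleaves it, had 26.0 and 27.3 CPM in control, 9.10 and 12.2 with siEA1-1, and 10.1 and 17.3 with siEA1-2. All 4 knockdown libraries were below control, and siEA1-2 replicate 2 was the nearest to it. The log2FC was 1.33 (standard error 0.25) with siEA1-1, or 2.51-fold, with an adjusted p of 0.00127. For siEA1-2 it was 0.94 (standard error 0.24), or 1.92-fold, with an adjusted p of 0.00984. Without siEA1-2 replicate 2, the log2FC with siEA1-2 was 1.42.

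BCL2L11 (ENSG00000153094, chr2:111119378-111168444, plus strand), which encodes BIM, a BH3-only protein that can activate BAX and BAK directly, had 68.6 and 63.9 CPM in control. It had 53.6 and 50.6 CPM with siEA1-1 and 35.8 and 45.9 with siEA1-2. The conditions did not overlap, with control highest and siEA1-2 lowest. The log2FC was 0.69 (standard error 0.14) with siEA1-2, or 1.61-fold, with an adjusted p of 0.00207. With siEA1-1 it was 0.34, with an interval from 0.05 to 0.64 and an adjusted p of 0.0587 that missed the threshold, and it passed with RLE size factors (adjusted p = 0.0474), without either library of siEA1-2 (adjusted p = 0.0145 and 0.0162), in a fit of only these 4 libraries (adjusted p = 0.0144), or with the replicate number as a block (adjusted p = 0.0442). The annotated exons of BCL2L11 share 727 bases, 10.78% of their length, with the lncRNA MIR4435-2HG on the opposite strand. MIR4435-2HG had 216 and 246 CPM in control, 95.4 and 106 with siEA1-1, and 90.3 and 120 with siEA1-2, with log2FC values of 1.20 and 1.14. Its part in the BCL2L11 counts was not tested.

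The EA1 siRNAs were also compared with each other. No member was called (0 of 10, edgeR, against 2.24% of all genes tested), and DESeq2 called 0 as well. At an unadjusted p under 0.05 there were 5 of the 10 members, MCL1, BAX, BAK1, BCL2L11 and BBC3, beside 17% of all genes tested. With the replicate number as a block, 1 member was called, BAK1 (log2 difference -0.58, adjusted p = 0.0351), where the share of all genes called was 5.85%. BAK1 was lower with siEA1-2 than with siEA1-1 by a log2 difference of -0.58 (95% interval -0.92 to -0.25, adjusted p = 0.0779). BAX was at 0.46 in the other direction (interval 0.17 to 0.75, adjusted p = 0.0974). Both intervals left out 0, and without the block both adjusted p values were above the threshold. For BCL2L11 the log2 difference was -0.34 (adjusted p = 0.232), for BBC3 -0.45 (adjusted p = 0.202), and for MCL1 -0.24 (adjusted p = 0.247). Intervals for the rest ran from -0.57 to 0.10 for BCL2, from -0.65 to 0.10 for BCL2L1, from -0.19 to 0.96 for BID, from -1.34 to 1.33 for PMAIP1 and from -0.68 to 2.11 for BCL2A1. siEA1-2 replicate 1, the library with the smallest total count, was the lowest of the 6 for BCL2, MCL1, BAK1, BCL2L11 and PMAIP1, and the part of its depth in this was not tested. Without siEA1-2 replicate 2, which leaves that library alone in its condition, BCL2L11 was called lower with siEA1-2, by -0.55 (adjusted p = 0.0476).

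Around the members, 62 other apoptosis genes were listed, of which 54 were in the table and 53 were tested. With siEA1-1, 17 were called higher in control and 7 lower, and with siEA1-2, 15 higher and 10 lower. Over all genes tested, the shares called were 20.3% higher and 19.9% lower with siEA1-1, and 18.2% and 18.5% with siEA1-2. The counts of higher genes include BIRC3, and the 10 lower include TNFRSF10C. Each passed the low-count filter only through the libraries where it was high. With at least 10 counts required in every library, 16 were higher and 8 lower with siEA1-1, and 14 higher and 9 lower with siEA1-2. The shares of all genes called in either direction were then 43.6% and 39.9%. The median log2FC of the 53 genes was 0.12 and 0.09, and that of all genes -0.02 and -0.00.

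Among 7 other BCL2 family genes tested, 1 was called higher in control and 2 lower with siEA1-1 (all genes 20.3% and 19.9%), and 2 higher and 2 lower with siEA1-2 (all genes 18.2% and 18.5%). BMF, BNIP3L and BCL2L13 were called with both, and BNIP3, outside the naming rule and chosen after its values were seen, with siEA1-2 (log2FC 0.67, adjusted p = 0.00559). BMF, a BH3-only gene, went with BBC3. BMF stood at 21.4 and 15.7 CPM in control, 179 and 186 with siEA1-1, and 120 and 126 with siEA1-2, so that no knockdown library overlapped control. It was 9.88-fold and 6.66-fold higher in knockdown (log2FC -3.30 and -2.74, adjusted p = 1.11e-07 and 2.76e-07). BNIP3L, which encodes a mitophagy receptor, rose from 69.0 ± 3.36 CPM to 124 ± 6.61 and 135 ± 19.2 (log2FC -0.84 and -0.96, adjusted p = 0.000185 and 8.94e-05), and BCL2L13, another mitochondrial family protein, fell from 191 ± 16.1 CPM to 133 ± 4.51 and 137 ± 6.09 (SD, n = 2 each; log2FC 0.52 and 0.47, adjusted p = 0.00179 and 0.00384).

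Downstream of mitochondria, 16 apoptosome and caspase genes were tested, with 7 called higher in control and 1 lower with siEA1-1, and 4 higher and 1 lower with siEA1-2, beside 20.3% and 19.9%, and 18.2% and 18.5%, of all genes. The genes named by the size of change belong to the inhibitor of apoptosis family. BIRC5, which encodes survivin and is also needed for cell division, fell (log2FC 1.23 and 0.61, adjusted p = 9.10e-06 and 0.00140), as did BIRC2, which encodes cIAP1 (log2FC 0.77 and 0.97, adjusted p = 0.000358 and 8.95e-05). BIRC7, which encodes livin, rose (log2FC -0.63 and -0.93, adjusted p = 0.00947 and 0.00100). BIRC3 had 12 and 16 counts in control, 1 and 1 with siEA1-1, and 0 and 3 with siEA1-2. The ratio was 12.7 (95% counting interval 3.20 to 110) and 8.22 (2.54 to 42.3), and edgeR called BIRC3 with each (adjusted p = 0.0103 and 0.0191). BIRC3 passed the low-count filter only through its control libraries, where it was high, so these calls give no support for a fall. CASP2, the fifth gene called with both, was 0.62 and 0.79 (log2FC, adjusted p = 0.00227 and 0.000552) and was added after its values were seen.

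Of 9 death receptor genes tested, 3 were called with siEA1-1, each higher in control (FAS, FADD and TNFRSF10B), and 3 higher (FAS, FADD and RIPK1) and 2 lower (the decoy receptors TNFRSF10C and TNFRSF10D) with siEA1-2, the genes beside FAS and FADD being listed after their values were seen. TNFRSF10C had 2 and 2 counts in control, 11 and 5 with siEA1-1, and 15 and 10 with siEA1-2. It passed the low-count filter only through knockdown libraries, where it was high, so its call gives no support for a rise. The shares of all genes called higher and lower were 20.3% and 19.9% with siEA1-1 and 18.2% and 18.5% with siEA1-2. FAS, a death receptor, and FADD, the adaptor through which it recruits caspase-8, fell with each EA1 siRNA. The log2FC of FAS was 1.08 and 1.42 (adjusted p = 0.0150 and 0.00455) and that of FADD 0.80 and 0.57 (adjusted p = 0.00149 and 0.0118). Of 6 mitochondrial partners tested, HK2, the hexokinase that docks on the outer membrane, was called higher in control with both, with log2FC values of 1.16 and 0.99 (adjusted p = 2.63e-05 and 9.93e-05). MTCH2, a receptor for BID on mitochondria that was singled out after its values were seen, was called lower in control with siEA1-2 (log2FC -0.29, adjusted p = 0.0326).

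Of the genes listed as regulators of the members 15 were tested, with 5 called higher in control and 4 lower with siEA1-1 (20.3% and 19.9% of all genes), and 5 higher and 4 lower with siEA1-2 (18.2% and 18.5% of all genes). The 4 lower with each were FOXO3, MITF, NFKB1 and USP9X. FOXO3, a transcription factor with BBC3 and BCL2L11 among its known targets, rose from 65.3 ± 0.642 CPM to 145 ± 9.74 and 127 ± 12.2 (SD, n = 2 each; log2FC -1.15 and -0.96, adjusted p = 1.05e-05 and 5.09e-05). BBC3 rose with each EA1 siRNA, whereas BCL2L11 did not (log2FC 0.34 and 0.69, called with siEA1-2 only). A part of FOXO3 in the change of either gene was not tested. FBXW7, a ubiquitin ligase subunit that targets MCL1 protein, fell (log2FC 1.28 and 0.83, adjusted p = 8.20e-06 and 0.000191). E2F1, a cell cycle factor, fell as well (log2FC 1.30 and 0.74, adjusted p = 3.25e-05 and 0.00167), as did CDKN1A, an inhibitor of cyclin-dependent kinases (log2FC 0.87 and 0.85, adjusted p = 0.00228 and 0.00289).

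**Figure D4:**
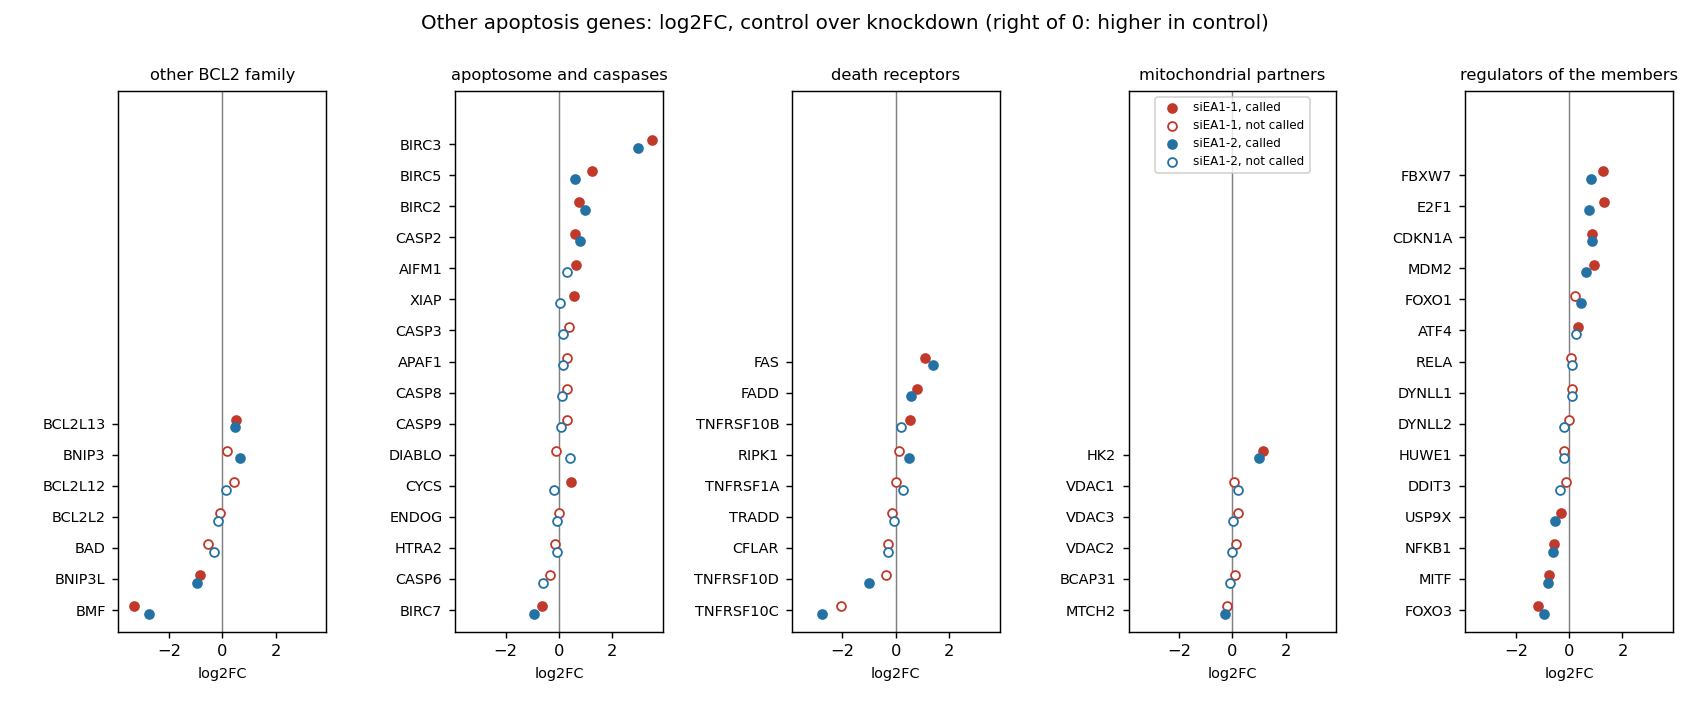
Fitted log2FC (horizontal axes, right of 0 for higher in control) of the 53 other apoptosis genes tested, by list; red is siEA1-1, blue is siEA1-2, and filled points were called at an adjusted p under 0.05. BMF lies farthest to the left and BIRC3 farthest to the right of these genes with siEA1-1. BIRC3 passed the low-count filter only through its control libraries.

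The genes whose profile over the 6 libraries came closest to a member's were found by the root mean square difference of log2 CPM, each centred on its own mean, among 13344 genes with a symbol. For BBC3 these were YPEL2 (0.14), MLIP (0.16) and EDNRB (0.17). For PMAIP1 they were HMGB1P21 (0.14), HPSE (0.19) and SPRY2 (0.19). HMGB1P21 is a processed copy of HMGB1 and its reads are uncertain.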

How the data were processed

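Libraries were those of the SU-CCS-1 siRNA experiment, and conditions came from the sample labels. Per the labels and the study's methods, the authors made stranded mRNA libraries, aligned reads to hg38 with BWA-MEM (an aligner without a splicing model), assigned them to genes with featureCounts 1.6.3 and deposited the raw counts. The annotation, strand setting and any low-count filter are not given in the sources used here, and gene counts do not separate isoforms of MCL1, BCL2L1 or BCL2L11.

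The deposited counts were filtered with filterByExpr of edgeR 4.0.16 (R 4.3.3; minimum count 10, minimum total 15), which kept 14571 of 18118 genes. They were scaled by TMM and fitted over 3 conditions with the quasi-likelihood model of edgeR. P values were corrected over all genes tested by the method of Benjamini and Hochberg. Standard errors came from the F statistic. The common biological coefficient of variation was 0.109. Floors and counting intervals cover counting error only. Exon length and coordinates came from GENCODE release 44, in which 18063 gene identifiers were found, and promoter windows from RefSeq, read with Python 3.11.15.

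The members and gene lists were chosen with earlier results of these data known, and 2 genes first on the lists are not reported here. Of each list the text names up to 4 genes called with both EA1 siRNAs with the largest averaged absolute log2FC; for the member with the largest averaged log2FC in each direction, the 3 genes of nearest profile are named. Alternatives were DESeq2 1.42.0, RLE size factors, no low-count filter, a minimum of 10 counts per library, a replicate block, leaving out each library, and fitting only the groups compared. Replicate numbers come from the labels, which name no shared batch. Deviations of same-numbered libraries correlated across genes at 0.130 for control and siEA1-1, 0.199 for control and siEA1-2, and 0.144 for siEA1-1 and siEA1-2. The blocked value is given where it changes a member's call, and for the other apoptosis genes only the blocked counts are given. The canonical transcript length was added after the data were seen.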

Additional observations from a re-analysis of the deposited data

Results flagged for a closer look

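When siEA1-1 and siEA1-2 were tested against each other, the threshold was passed by 2 of the other apoptosis genes, BIRC5 and BMF, and by no member. BIRC5 stood at 92.9 and 79.7 CPM with siEA1-1 and 125 and 141 with siEA1-2, against 212 and 194 in control, a log2 difference of 0.62 (adjusted p = 0.0199, edgeR). BMF, which rose with both, was lower with siEA1-2 by a log2 difference of -0.57 (adjusted p = 0.0339).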

How the results depend on the processing

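Of the refits of single members, 429 kept their direction and their side of the threshold, 11 lost a call and 8 gained one. The sign changed in 12, none of which was called in either fit; they were contrasts of BAK1, BCL2A1, BCL2L1, BID, MCL1 and PMAIP1. BCL2, BBC3 and BID stayed called with each EA1 siRNA under all 12 alternatives, with log2FC values from 1.33 to 1.52 and from 1.47 to 1.94 for BCL2, from -2.75 to -2.64 and from -2.41 to -2.04 for BBC3, and from 1.13 to 1.57 and from 0.65 to 1.42 for BID. The 11 lost calls were those of BAX and PMAIP1 given above.

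Leaving out 1 library at a time, the number of members called higher in control with siEA1-1 ran from 2 to 5 (2 without control replicate 1, control replicate 2 or siEA1-1 replicate 1, where the share of all genes called in either direction was 28.7%, 27.8% and 26.4%, against 40.1% with all libraries), and the number called lower with siEA1-2 than with siEA1-1 from 0 to 1 (1 without siEA1-2 replicate 2). The library left alone in its condition was then assumed to vary like the others. At least 10 counts in every library left out BCL2A1 and PMAIP1, for which that filter gave no value.

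A fit with the replicate number as a block called 2 members lower in control with siEA1-1 (BCL2L1 added, adjusted p = 0.0404), 5 higher (BCL2L11 added, adjusted p = 0.0442), while the share of all genes called went from 40.1% to 44.5%, and 1 member lower with siEA1-2 than with siEA1-1 (BAK1, adjusted p = 0.0351). The block changed no other member's call. Of the other apoptosis genes, it called 18 higher in control and 9 lower with siEA1-1, against 17 and 7 without it. With siEA1-2 it called 16 higher and 12 lower, against 15 and 10, while the share of all genes called went from 36.7% to 40.7%. Over all genes, calls between the EA1 siRNAs went from 326 to 853, and leaving out a library gave from 33 (without siEA1-1 replicate 2) to 788 (without siEA1-2 replicate 2). Fitting only the 4 knockdown libraries gave 176.

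The members scarce in counts, PMAIP1 and BCL2A1, set the limit of depth.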
